A study of Mus musculus with 8 samples.

Results

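The genes of major histocompatibility complex (MHC) antigen presentation were followed across cell classes of the ascending thoracic aorta. It was taken from 3 wildtype mice of advanced age. Members were every gene whose symbol starts with H2-, the prefix of the mouse MHC, plus B2m, Cd74, Tap1, Tap2, Tapbp, Psmb8, Psmb9, Psmb10, Psmb11, Ciita and Nlrc5. They came to 45 of the 32285 genes measured. Of these, 33 belong to the class I side, 11 to the class II side and 1, H2-Ke6, is an enzyme gene that lies within the MHC and serves neither.

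The animals were 81, 84 and 88 weeks old and carried hashtags 1, 2 and 3, antibody barcodes that mark each animal's cells before pooling. All were wildtype and untreated as far as the labels say, the strain is not given in the sources used here, and with aged animals alone no comparison of ages was possible. Cells were freed at 37 °C within 60 min by elastase (1 mg/mL) and type II collagenase (10 mg/mL), filtered at 70 µm and cleared of dead cells, and some 15000 live ones were loaded. The 4 gene expression and 4 hashtag libraries came from the same pool and stand in 1 matrix, with 0 barcodes listed more than once.

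Class I molecules, a heavy chain paired with B2m, show peptides from inside the cell to CD8 T cells and are made by nearly all nucleated cells. Their peptides are cut by the proteasome, whose inducible form carries Psmb8, Psmb9 and Psmb10, pumped into the endoplasmic reticulum by Tap1 and Tap2, and loaded with the help of tapasin (Tapbp). Class II molecules, pairs of alpha and beta chains guided by the invariant chain Cd74, show peptides from outside the cell to CD4 T cells and are made mainly by macrophages, dendritic cells, B cells and thymic epithelium. Nlrc5 and Ciita are the transactivators of class I and class II genes, and both act at promoters through a conserved module that includes an X box and a Y box.

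The promoter stretches that carry the letters of both boxes are shown first. In the 250 bases before each start site in the RefSeq promoter table (GRCm38.p6), 38 members were found; Cd74, H2-Ab1, Tap2, Ciita, Nlrc5, H2-Q1 and H2-T24 had no entry. The motif pair searched was TGACG, the core of the second X element, followed by ATTGG, the Y box core, with 19 to 21 bases between them, on either strand. The spacing was set after these promoters had been read, and the H2- genes are related by descent. The pair was present in 6 of 38 members (15.8%), against 55 of 27025 genes in the table (0.204%). In the 140 bases before the start site printed here, 5′ to 3′ on the strand of the gene, capitals mark the pair.

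B2m, chr2:122147547-122147686, plus strand: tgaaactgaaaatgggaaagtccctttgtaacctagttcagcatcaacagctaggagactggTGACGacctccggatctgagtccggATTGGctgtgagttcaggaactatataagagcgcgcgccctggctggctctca
H2-K1, chr17:34000348-34000487, minus strand: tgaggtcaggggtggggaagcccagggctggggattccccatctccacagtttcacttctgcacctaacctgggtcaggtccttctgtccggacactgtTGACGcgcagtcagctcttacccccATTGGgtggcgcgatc
H2-D1, chr17:35262954-35263093, plus strand: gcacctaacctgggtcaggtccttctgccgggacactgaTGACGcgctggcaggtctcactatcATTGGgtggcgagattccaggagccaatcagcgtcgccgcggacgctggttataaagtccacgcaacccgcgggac
H2-Q7, chr17:35439015-35439154, plus strand: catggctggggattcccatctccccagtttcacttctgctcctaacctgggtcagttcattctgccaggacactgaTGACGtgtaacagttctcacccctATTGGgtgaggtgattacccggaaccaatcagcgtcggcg
H2-M3, chr17:37270094-37270233, plus strand: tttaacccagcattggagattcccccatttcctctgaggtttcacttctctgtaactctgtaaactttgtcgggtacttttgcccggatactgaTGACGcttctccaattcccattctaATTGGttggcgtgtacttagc
H2-Aa, chr17:34287824-34287963, minus strand: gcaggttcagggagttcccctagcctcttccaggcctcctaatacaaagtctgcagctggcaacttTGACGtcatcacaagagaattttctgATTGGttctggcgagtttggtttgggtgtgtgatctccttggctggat

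The first base of TGACG lay 78 bases before the start in B2m, 41 in H2-K1 (55 from the other of its 2 start sites in the table), 101 in H2-D1, 64 in H2-Q7, 46 in H2-M3 and 74 in H2-Aa. TGACG alone was present in 15 of 38 members and in 19.8% of all genes, and ATTGG alone in 33 of 38 and in 37.5%. Another motif, GAAANNGAAA, the core of the interferon-stimulated response element, was present in 3 of 38 members (B2m, H2-T22 and H2-T23) and in 3.46% of all genes. Each match is a description of letters in a window and not a binding site.

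Of 26916 barcodes, 11301 passed the filters and 10433 entered the clustering, from which the member and interferon genes were left out. Clusters were named from marker genes as endothelial-like (980 cells), smooth muscle-like (4756), fibroblast-like (1298), T cell-like (1935), macrophage-like (30) and B cell-like (24), beside smaller classes. A hashtag was assigned to 4174 cells (518, 2642 and 1014 for the animals of 81, 84 and 88 weeks). Tests, values by animal and ratios of UMI counts used these tagged cells alone. No hashtag was assigned to 4303 of 4756 smooth muscle-like, 1086 of 1298 fibroblast-like and 102 of 980 endothelial-like cells. In order of age, tests rested on 104, 202 and 147 smooth muscle-like and 33, 135 and 44 fibroblast-like cells. At 2 times the hashtag cutoff, 28, 16 and 43 smooth muscle-like cells were left. T cell-like cells included 875 like double-positive thymocytes and 810 dividing cells, and their RNA was present in other classes: 9 T cell genes summed to 170.3 to 210.03 CPM (UMIs, the counts of captured RNA molecules, scaled to a fixed total per sum) in the endothelial-like sums of the 3 animals, 70.1 to 131 in the smooth muscle-like and 144, 1142 and 996 in the fibroblast-like. Its part in the results below was not tested except where a value without such cells is given.

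All members lie on chromosome 17 except 6. B2m lies on chromosome 2 (chr2:122147687-122153082), Nlrc5 and Psmb10 on chromosome 8, Psmb11 on 14, Ciita on 16 and Cd74 on 18. H2-K1 (chr17:33996012-34000619) and H2-D1 (chr17:35263094-35267497) are the classical class I heavy chains, and 22 further class I heavy chain genes are nonclassical. In the clustered cells 8 members had 0 UMIs: H2-M1, H2-M11 and H2-M10.1 to H2-M10.6. The 27 members that passed the filter on low counts in at least 1 comparison, 12 of them in every one, are those a test could reach. The other members that were counted but not tested, H2-DMb2, H2-Ob, H2-Eb2, H2-Q1, H2-T3, H2-M2, H2-M5, H2-M9, Psmb11 and Ciita, had 5 (H2-M5) to 338 (Psmb11) UMIs in all clustered cells. Reads of close relatives such as H2-K1 and H2-D1, H2-Q6 and H2-Q7, or H2-T22 and H2-T23 can be shared, so the split between such genes is uncertain.

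Endothelial-like cells held more RNA of every class I gene tested than smooth muscle-like cells. H2-K1 stood at 1753, 1414 and 2121 CPM in the endothelial-like cells of the 3 animals (in order of age) and at 105, 101 and 88.1 in their smooth muscle-like cells. H2-D1 stood at 2042, 1671 and 2088 CPM against 140, 156 and 129. B2m, the light chain of all class I molecules, stood at 2501, 2025 and 2549 CPM against 364, 349 and 385. For these 3 genes every endothelial-like value lay above every smooth muscle-like one. The share of all genes without overlap was not worked out, for this or any later comparison of such values. The log2 fold changes were 4.06 ± 0.14 (SE) for H2-K1, 3.67 ± 0.13 for H2-D1 and 2.59 ± 0.10 for B2m, with adjusted p of 4.42e-12, 3.99e-12 and 1.27e-11 (edgeR's quasi-likelihood test, 3 animals, with Benjamini-Hochberg adjustment across every gene in the fit).

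In that comparison 22 of 23 tested members were called higher in endothelial-like cells. A call here means a log2 fold change of 1 or more in either direction together with an adjusted p below 0.05. Of all 10223 genes tested, 17.0% were called higher. The members' median log2 fold change was 3.08 (all genes, 0.01), and none was called lower, against 16.6% of all genes. All 17 tested class I genes were called, with a median of 4.06, and H2-Ke6 was not, at 0.12 ± 0.19. Of the 9 T cell genes 5 were called higher as well, with a median of 1.02. Without cells holding T cell RNA (2 or more UMIs of the list), 20 of 21 tested members were called higher, with H2-K1 at 4.01, H2-D1 at 3.64 and B2m at 2.62. Shares over all genes were worked out for calls of the main fits alone. This count, and those below by unadjusted p, DESeq2 or other alternatives, therefore cannot be set against such a share.

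The peptide supply genes showed the same order. Psmb8 stood at 430, 310 and 330 CPM in endothelial-like cells and at 8.67, 3.67 and 7.39 in smooth muscle-like cells, and its log2 fold change was 5.73 ± 0.18. Psmb9 differed by 5.34 ± 0.19 (172 ± 43.1 against 3.72 ± 0.48 CPM, SD, n = 3) and Psmb10 by 3.06 ± 0.17. Their constitutive counterparts, the standard catalytic subunits Psmb5, Psmb6 and Psmb7, differed by -0.36, -0.54 and -0.20, and none of the 3 was called here or in any other comparison. Summed over all cells of a class, Psmb8, Psmb9 and Psmb10 came to 656 CPM in endothelial-like and 23.8 in smooth muscle-like cells, while Psmb5, Psmb6 and Psmb7 came to 401 and 518.

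The transporter and loading genes had smaller fold changes. Tap1, at 71.5, 36.5 and 44.7 CPM against 7.88, 5.14 and 5.80, was higher by 2.88 ± 0.22, Tap2 by 2.35 ± 0.18 and Tapbp by 2.12 ± 0.12. Of 7 folding and trimming partners, 4 were called higher in endothelial-like cells: the trimming peptidase Erap1 (1.48 ± 0.16), the proteasome activator subunits Psme1 (2.03 ± 0.11) and Psme2 (1.71 ± 0.12), and the tapasin relative Tapbpl (2.50 ± 0.25). The chaperones Calr, Canx and Pdia3, which serve many other proteins as well, stood at -0.18, -0.02 and 0.05. Nlrc5 was sparse, with 42 UMIs in the tagged endothelial-like cells and 2 in the smooth muscle-like, a ratio per UMI of 25.3 (95% interval of the counts 6.59 to 216).

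The 7 nonclassical heavy chains tested, a group whose members present special peptides or act as ligands of natural killer cell receptors, differed by 2.67 (H2-T22) to 9.55 (H2-Q7). H2-Q7 stood at 361, 241 and 420 CPM in endothelial-like cells. In the tagged smooth muscle-like cells 2 UMIs of H2-Q7 were counted, a ratio of 988 (273 to 8163). Likewise 2 of H2-Q6 were counted in them, a ratio of 494 (136 to 4082). H2-Q4 stood at 292, 211 and 262 CPM against 4.73, 3.67 and 2.11, a log2 fold change of 6.06 ± 0.20. H2-T23, the mouse Qa-1 gene, stood at 276, 239 and 239 CPM against 3.15, 8.08 and 4.75, a difference of 5.30 ± 0.20. For H2-Q4, H2-Q7 and H2-T23 the values of the classes did not overlap. H2-T22 (2.67 ± 0.18), H2-M3, which presents formylated peptides (3.08 ± 0.24), and H2-T24 (4.18 ± 0.43) were also called.

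**Figure D1:**
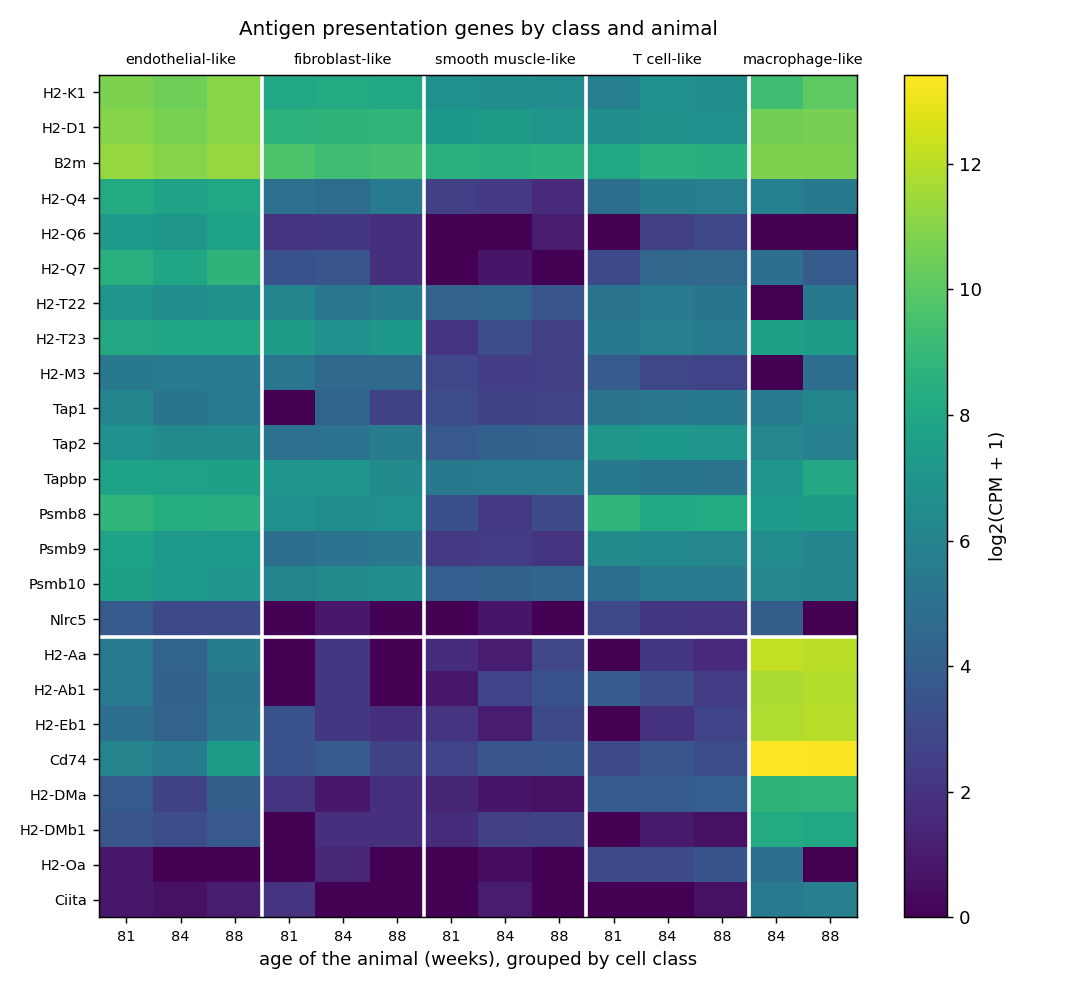
Level of 24 members, as log2(CPM + 1) by colour, in each cell class (blocks of columns) and animal (columns, age in weeks); class I genes stand above the white line and class II genes below it. Endothelial-like columns are the brightest of the wall classes for H2-K1, H2-D1 and B2m, and the macrophage-like columns stand out for H2-Aa, H2-Ab1, H2-Eb1 and Cd74; the macrophage-like cells of the animal of 81 weeks were too few to show.

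Fibroblast-like cells lay between the other wall classes for many class I genes. H2-K1 stood at 264, 290 and 259 CPM in their sums and H2-D1 at 402, 416 and 433. Both sets of values lay above all smooth muscle-like and below all endothelial-like ones. Against smooth muscle-like cells 11 of 14 tested members were called higher in fibroblast-like cells (12.8% of 9166 genes) and 0 lower (10.8%), with a median of 1.39 against 0.01 for all genes. By edgeR's unadjusted p under 0.05, 1 member was lower, and DESeq2 called 10 higher and 0 lower.

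The fibroblast-like excess was uneven across the pathway. H2-T23 stood at 163, 111 and 139 CPM in fibroblast-like cells and was higher than in smooth muscle-like cells by 4.30 ± 0.26. Psmb8, at 110, 89.3 and 107 CPM, was higher by 3.90 ± 0.25, Psmb9 by 3.01 ± 0.35 and Psmb10 by 2.17 ± 0.21. H2-K1 and H2-D1 were higher by 1.33 ± 0.13 and 1.4 ± 0.12. B2m differed by 0.79 ± 0.10, below the fold limit. Tap2 differed by 1.01 ± 0.26 and lost its call in most alternatives, among them without the animal of 81 weeks (0.94) or of 88 weeks (0.90). Cd74, the only class II gene tested there, stood at -0.10 ± 0.41 (adjusted p = 0.883).

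T cell RNA moved with this comparison, since 9 of 9 T cell genes were called higher in the fibroblast-like sums, by 2.18 to 3.33. Without cells holding such RNA, 11 of 13 tested members were called higher, 10 of them also called with those cells kept. B2m was then higher by 1.05 and called, and Tap2, at 0.61, was not.

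Set against fibroblast-like cells, endothelial-like cells were called higher for 16 of 21 tested members (13.4% of 9416 genes) and lower for 0 (15.3%), with a median of 2.21 against 0.01. By the unadjusted p 21 were higher and 0 lower, and DESeq2 called 16 and 0. H2-K1 differed by 2.67 ± 0.15, H2-D1 by 2.21 ± 0.13, B2m by 1.74 ± 0.12 and Psmb8 by 1.80 ± 0.15. H2-Q6 and H2-Q7 again had wide gaps, 5.54 ± 0.30 and 5.14 ± 0.28. H2-T23 (0.91 ± 0.15), Psmb10 (0.86 ± 0.19), Tapbp (0.82 ± 0.16) and H2-M3 (0.77 ± 0.26) stayed under the fold limit, with adjusted p of 0.000125, 0.00172, 0.000588 and 0.0241 by edgeR's quasi-likelihood test. T cell genes ran the opposite way here, 9 of 9 called lower in endothelial-like cells. Without cells holding T cell RNA, 13 of 19 tested members were called higher. Of the 3 calls missing there, H2-Ab1 and H2-T24 no longer passed the filter on low counts and H2-T22 moved from 1.17 to 0.99 and lost its call. Tap2, at 1.28 ± 0.22, lost its call at the stricter hashtag cutoff (0.87), and Psmb10 gained one without the animal of 88 weeks (1.08).

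**Figure D2:**
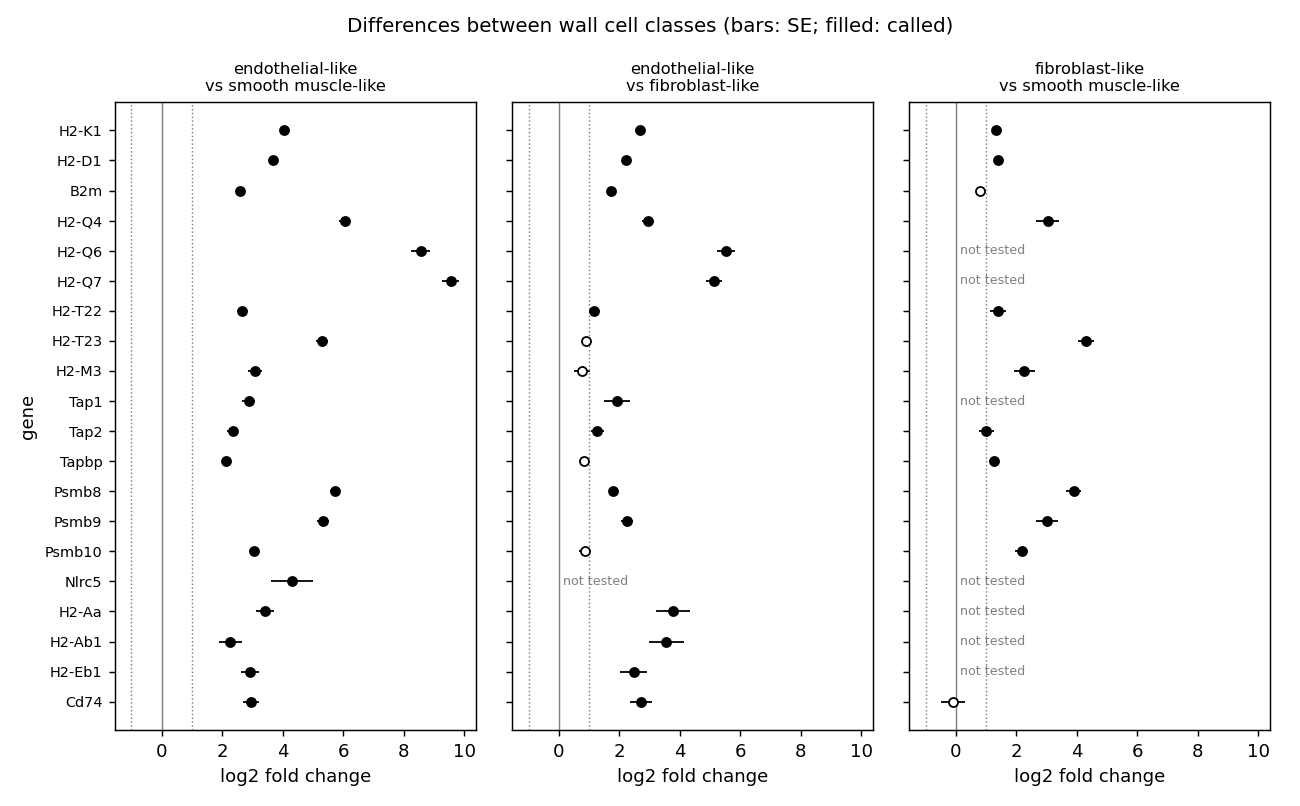
Log2 fold change (points) and standard error (bars) of 20 members in 3 comparisons of wall cell classes; filled points were called, dotted lines mark log2 fold changes of -1 and 1. Endothelial-like cells lie to the right for every class I and class II gene shown, from H2-Q7 at 9.55 to H2-M3 at 0.77, and Cd74 lies at -0.10 between fibroblast-like and smooth muscle-like cells.

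Most listed genes of the interferon-gamma pathway, the best known inducer of both MHC classes, were also higher in endothelial-like cells. Of 20 listed genes 18 were tested against smooth muscle-like cells, and 16 were called higher (17.0% of all genes) and 1 lower (16.6%). Cxcl9, a chemokine induced by interferon-gamma, was higher by 8.11 ± 0.24, Gbp4, a guanylate-binding protein, by 5.68 ± 0.24 and the transcription factor Irf8 by 4.71 ± 0.46. The receptor chain Ifngr2 was lower (27.1 against 68.2 CPM), and the other chain, Ifngr1, higher by 2.41 ± 0.12. Against fibroblast-like cells 14 of 19 were called higher (13.4% of all genes) and 1, the feedback inhibitor Socs1, lower (15.3%).

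Of 4 listed class I-like genes outside the prefix, 3 were called higher in endothelial-like than smooth muscle-like cells (17.0% of all genes). Of the 3 tested against fibroblast-like cells, 0 were called higher (13.4% of all genes) and 1 lower (15.3%). Hfe, which pairs with B2m and controls iron uptake, was higher by 5.19 ± 0.38 in endothelial-like and by 5.30 ± 0.49 in fibroblast-like than in smooth muscle-like cells, and between endothelial-like and fibroblast-like cells it differed by -0.20 ± 0.25. On a separate list of co-stimulation genes, Cd274, the inhibitory ligand PD-L1, stood at 47.5 CPM in endothelial-like and 2.16 in smooth muscle-like cells. This was a difference of 4.26 ± 0.31. No UMI of Cd274 was counted in the tagged fibroblast-like cells. It was thus at least 27.2-fold higher in the tagged endothelial-like cells, taking 3 UMIs as the limit of a count of 0. Of the 7 factors that bind class I and class II promoters, 1 was called in both endothelial-like contrasts: the RFX subunit Rfxap, higher by 1.75 ± 0.16 and 1.70 ± 0.27.

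Within the endothelial-like cells, capillary-like and arterial-like cells had class I levels close to each other. H2-K1 stood at 1727, 1339 and 1958 CPM in capillary-like cells (660 cells) and at 2254, 1541 and 1990.0 in arterial-like cells (67 cells), and these ranges overlapped. Between them 0 of 16 tested members were called, against 2.37% of 5152 genes higher and 4.97% lower, with log2 fold changes from -0.47 to 0.43. By the unadjusted p 1 member was higher (B2m, 0.42 ± 0.13) and 1 lower (Psmb10, -0.47 ± 0.21), and DESeq2 called 0 and 0. The limit of precision at this cell number was an SE of 0.12 to 0.52. Cxcl9 was higher in capillary-like cells by 4.49 ± 0.28 and Cd274 by 2.40 ± 0.52 in the same fit.

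Lymphatic-like endothelial cells were too few to test (20 cells). Pooled over them, H2-K1 came to 453 CPM (exact Poisson 95% interval 352 to 573), against 1706 over all endothelial-like cells, and Psmb8 came to 52.5 CPM against 341. Of the other small classes, mesothelial-like cells (51 cells) had H2-K1 at 945 CPM (868 to 1026), epithelial-like cells (45 cells) at 412 (375 to 451), Schwann-like cells (18 cells) at 319 (217 to 453) and pericyte-like cells (125 cells) at 132 (111 to 157). The mesothelial-like value lay above the fibroblast-like one of 269.98 (260.1 to 280.2). The pericyte-like value lay between that and the smooth muscle-like one of 96.9 (94.3 to 99.5). These are exact Poisson intervals on pooled UMIs, cover counting error only, and carry no test over animals.

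Class II genes had another distribution. In macrophage-like cells H2-Aa stood at 4572 and 4160.1 CPM in the animals of 84 and 88 weeks, H2-Ab1 at 3301 and 3702, H2-Eb1 at 3652 and 4077, and Cd74 at 10912 and 10192. The animal of 81 weeks had 5 such cells, under the minimum of 10. In the animals of 84 and 88 weeks, the 5 cells with most UMIs of these 4 genes held 85.1% and 81.6% of them. At least 3 such UMIs were counted in 9 of 11 and 7 of 12 cells. The endothelial-like values of the same animals were 19.05 and 48.7 CPM for H2-Aa and 42.9 and 158 for Cd74. Every macrophage-like value lay above every endothelial-like one.

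Against endothelial-like cells, 6 of 24 members were called higher in macrophage-like cells (5.69% of 8580 genes) and 5 lower (5.76%), in 2 animals. The 6 were all the class II genes tested: H2-Aa (6.91 ± 0.47), H2-Ab1 (6.89 ± 0.38), H2-Eb1 (6.89 ± 0.38), Cd74 (6.76 ± 0.58) and the peptide editors H2-DMa (5.29 ± 0.42) and H2-DMb1 (4.54 ± 0.44), which exchange peptides on class II. The 5 were all class I: H2-K1 (-1.27 ± 0.26), H2-Q4 (-2.45 ± 0.41), H2-Q6, H2-Q7 and Psmb8 (-1.25 ± 0.30). H2-Q7 had 3 UMIs in the macrophage-like cells of these 2 animals, a ratio of 15.3 in favour of endothelial-like cells (5.23 to 74.4). H2-Q6 had none in them and was at least 8.15-fold lower. H2-D1 (-0.48 ± 0.24) and B2m (-0.59 ± 0.25) were not called, with adjusted p of 0.271 and 0.206 (edgeR's quasi-likelihood test). The calls on H2-K1 and Psmb8 were lost without doublet removal (-0.92 and -0.94), that on H2-K1 also without the block on animal and that on Psmb8 under DESeq2.

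Of 7 class II processing genes, 6 were higher in macrophage-like cells. The lysosomal proteases Ctss, Ctsb, Ctsd and Lgmn, the thiol reductase Ifi30 and March1, a ubiquitin ligase that removes class II from the surface, made up the 6, and the protease Ctsl was lower (-1.56 ± 0.28). Ciita was counted at 43.8 and 55.5 CPM in macrophage-like cells and passed the filter on low counts in no comparison. T cell RNA also differed between these sums, at 1899 and 222 CPM in the macrophage-like cells of the 2 animals, and its part in these results was not tested.

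Among wall cells, class II chains were low but not equal. H2-Aa, H2-Ab1 and H2-Eb1 summed to 118, 54.5 and 126 CPM in endothelial-like cells, 6.31, 7.71 and 22.7 in smooth muscle-like cells and 9.42, 10.4 and 2.67 in fibroblast-like cells. The endothelial-like values lay above all others. H2-Aa was higher in endothelial-like than smooth muscle-like cells by 3.40 ± 0.30, H2-Ab1 by 2.27 ± 0.37, H2-Eb1 by 2.92 ± 0.31 and Cd74 by 2.94 ± 0.27. H2-DMb1, at 1.11 ± 0.36 (adjusted p = 0.0161, edgeR's quasi-likelihood test), lost its call without the animal of 81 weeks (0.91), under DESeq2 (1.22) and without doublet removal (0.995). All 4 tested class II genes were also higher than in fibroblast-like cells, by 2.48 to 3.77.

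Most of this signal came from 1 endothelial subset. The large-vessel-like cells, 85 cells led by Vwf (von Willebrand factor), Cytl1, Bmx and Bmp4, held 695 of the 914 UMIs of H2-Aa, H2-Ab1, H2-Eb1 and Cd74 in all endothelial-like cells. Their class II chain sums were 680, 296 and 453 CPM, against 38.5, 14.03 and 14.7 in capillary-like and 0, 11.6 and 7.71 in arterial-like cells. No value of the large-vessel-like cells overlapped the others. The 14 large-vessel-like cells without a hashtag differed from the tagged ones, with a sum of 12.4 CPM.

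In capillary-like against large-vessel-like cells 5 of 22 members were called lower (13.2% of 6189 genes) and 1 higher (12.1%). The 5 were class II genes. H2-Aa stood at 8.75, 3.12 and 6.13 CPM in capillary-like and 283, 107 and 179 in large-vessel-like cells, a log2 fold change of -4.97 ± 0.32. H2-Ab1 (-4.23 ± 0.32), H2-Eb1 (-4.18 ± 0.35) and Cd74 (-4.03 ± 0.26) were lower as well. H2-DMb1 had 1 UMI in the tagged capillary-like and 39 in the tagged large-vessel-like cells, a ratio of 130 (22.03 to 5272). Ciita had 0 UMIs in the 660 capillary-like and 4 in the 85 large-vessel-like cells, too few for a test.

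Of the class I genes none was called lower there. H2-K1 differed by -0.31 ± 0.16 and H2-D1 by -0.33 ± 0.15, and neither was called (adjusted p of 0.148 and 0.093, edgeR's quasi-likelihood test). B2m was higher in capillary-like cells by 0.73 ± 0.15 and Tap2 by 0.85 ± 0.26, both under the fold limit. H2-T24 was the member called higher, with 58 UMIs against 3, a ratio of 5.79 (1.89 to 28.9), and DESeq2 did not call it. Genes of the interferon-gamma list called higher in capillary-like cells included Cxcl9, Gbp7 and Jak1 (1.29 ± 0.23). Of the class II processing genes Lgmn (-5.09 ± 0.40) and Ctsd (-1.57 ± 0.20) were lower there.

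**Figure D3:**
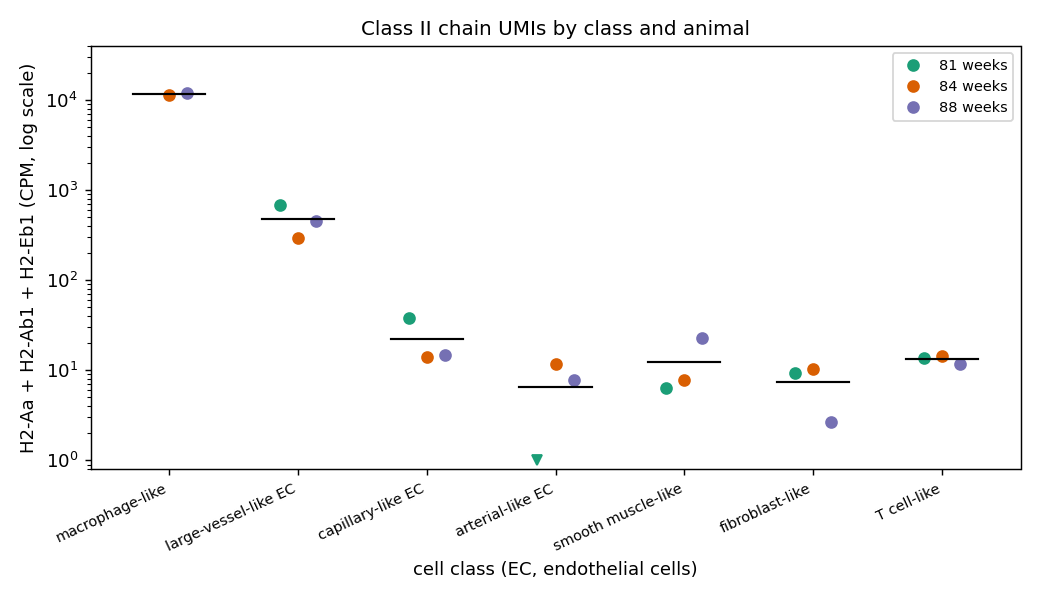
Summed level of H2-Aa, H2-Ab1 and H2-Eb1 in CPM (log axis) for each animal (points, coloured by age) in 7 cell classes; horizontal lines are means over animals and the triangle marks a value of 0 drawn at 1. Large-vessel-like endothelial cells (296 to 680 CPM) lie between macrophage-like cells (11526 and 11939 CPM) and all other classes shown.

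Single cells showed how uneven this was. At least 3 UMIs of H2-Aa, H2-Ab1, H2-Eb1 and Cd74 together were counted in 39 of 85 large-vessel-like cells, which held 672 of the 695 UMIs, and in 8 of the other endothelial-like cells (47 of 980 in all). By animal the count was 13 of 22, 3 of 17 and 23 of 32 cells. The 5 cells with most UMIs held 46.6% of the total over all animals and 96.8% in the animal of 84 weeks, so that animal's level rests on few cells.

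Endothelial genes were found in nearly all of the 39 cells. Pecam1, an endothelial adhesion gene, was found in 39 of 39, Vwf in 38, Cdh5 (VE-cadherin) in 36 and Cytl1 in 39. The leukocyte gene Ptprc and the macrophage genes Ctss, Csf1r, C1qa and Cd68 had 0 of the 537075 UMIs of these cells, and the macrophage genes C1qb and Lyz2 had 1 each. In the 30 macrophage-like cells C1qa came to 5146 CPM and Ctss to 1407.

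Shares of cells showed the same split. Class II chain UMIs were found in 51 of 85 large-vessel-like cells (60.0%, exact 95% interval 48.8 to 70.5%) and in 40 of 660 capillary-like cells (6.06%, 4.37 to 8.16%). T cell-like cells, which should lack class II in the mouse, gave 122 of 1935 (6.30%, 5.26 to 7.48%). After thinning each cell to 1000 UMIs the shares were 24.7%, 1.97% and 1.71%. The capillary-like share lay within the T cell-like interval, at similar median depths (3612 and 3881 UMIs). The large-vessel-like share lay above it (7398 UMIs before thinning). Mean CPM in capillary-like and T cell-like cells was 6.00 and 1.88 for H2-Aa, 7.71 and 2.77 for H2-Eb1, 8.70 and 8.73 for H2-Ab1, and 20.75 and 8.72 for Cd74. Whether the capillary-like UMIs are background was not tested. Smooth muscle-like cells gave 7.74% before and 1.09% after thinning. These intervals cover counting error only.

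Outside the wall classes, B cell-like cells held class II RNA as well, with 2180.1 CPM of the 3 chains pooled over 24 cells. Of these cells 18 carried hashtag 2, 1 hashtag 1 and 2 hashtag 3. Their marker scores were 6.12 for B cells and 5.7 for plasma cells. H2-Ob, a subunit of the editor H2-O that B cells are known for, was counted at 179 CPM in them (33 UMIs), and H2-Oa at 92.2. A cluster of 23 cells led by S100a9 and S100a8, genes of neutrophils, held more, with 22629.5 CPM of the 3 chains against 13452 pooled over macrophage-like cells, and Cd74 at 17940.3. It was given no name, since markers of neutrophils and of dendritic cells were raised in it together.

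Another cluster of 27 cells stood apart by Psmb11. This gene encodes a proteasome subunit made in the cortical epithelium of the thymus. It came to 692 CPM there, and these cells held 320 of the 338 Psmb11 UMIs of all clustered cells. The cluster was led by Tbata, Prss16, Ccl25 and Krt8, of which Prss16 and Ccl25 are known thymic epithelial genes, and it also carried 3504 CPM of T cell RNA, for which reason it was left unnamed. Its Psmb9 and Psmb10 came to 523 and 735 CPM, Cd74 to 6678 and H2-Ab1 to 3485. Class I was also high, with H2-K1 at 1972 CPM. Of the 27 cells 17 carried hashtag 2, 7 hashtag 3 and 0 hashtag 1, so 1 animal alone reached the minimum of 10 cells and no test was made.

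In T cell-like cells the classical heavy chains H2-K1 and H2-D1 were low. H2-K1 stood at 55.1, 108 and 102 CPM in them and H2-D1 at 103, 115 and 107. The nonclassical H2-Q4 and H2-T23 averaged 43.2 and 47.9 CPM in T cell-like cells, against 3.50 and 5.33 in smooth muscle-like cells, a pair of classes between which no test was made. Against endothelial-like cells 19 of 26 members were called lower (28.8% of 10499 genes) and 2 higher (17.8%), with a median of -2.34 against -0.17 for all genes. Among them were H2-K1 (-4.43 ± 0.13), H2-D1 (-4.42 ± 0.12), B2m (-3.08 ± 0.11) and Tapbp (-2.81 ± 0.15). In this fit the spread was pooled over genes, so an SE does not measure a gene's own variation between animals.

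The peptide supply genes were divided there. Psmb10, at 39.0 ± 9.90 CPM against 157 in endothelial-like cells (SD, n = 3), was called lower (-2.06 ± 0.14), as were Tapbp and Psmb9. Psmb8 stood at 434, 263 and 288 CPM in T cell-like cells, a range that overlapped the endothelial-like one, and differed by -0.51 ± 0.12. Tap1 differed by -0.40 ± 0.18 and Tap2, at 138, 143 and 129 CPM, by 0.31 ± 0.14, and none of these 3 was called. The 2 members called higher were H2-Q2, at 34.4, 65.8 and 59.8 CPM against 0.80, 1.59 and 0 (5.68 ± 0.40), and H2-Oa, with 70 UMIs against 1, a ratio of 37.3 (6.48 to 1494). The lower call on Nlrc5 (-1.38 ± 0.46) was lost without the animal of 84 weeks (-1.29) or of 88 weeks (-1.08), under DESeq2 and in 2 further alternatives. The lower call on Psmb9 (-1.38 ± 0.14) was lost at a mitochondrial limit of 10% (-0.70), and that on H2-Ab1 (-2.09 ± 0.28) when cells with a hashtag were clustered alone (-0.88).

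Within the T lineage, H2-K1, H2-D1 and B2m differed between the stages, while most tested members were not called. Double-positive thymocyte-like cells are immature T cells carrying CD4 and CD8 together, and mature T cell-like cells have passed selection. H2-K1 stood at 38.9 and 50.6 CPM in the former and at 454 and 252 in the latter, in the animals of 84 and 88 weeks. H2-D1 stood at 85.2 and 65.4 CPM against 333 and 280, and B2m at 290 and 289 against 789 and 641. All 3 genes were higher in mature T cell-like cells in both animals, with no overlap. The double-positive-like cells of the animal of 81 weeks (10 cells) had no mature partner set of that size.

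In that comparison 5 of 17 members were called higher (6.25% of 6034 genes) and 0 lower (5.77%). By edgeR's unadjusted p 6 were higher and 1 lower, and DESeq2 called 5 and 0. The 5 were H2-K1 (3.22 ± 0.27), H2-D1 (2.09 ± 0.19), B2m (1.4 ± 0.15), H2-Q7 (5.38 ± 0.51) and H2-Q6, whose 22 UMIs against 3 gave a ratio of 26.2 (7.88 to 137). H2-T23 was at 83.1 and 82.3 CPM against 96.1 and 68.7, a difference of 0.14 ± 0.28, and H2-Q4 differed by 0.19 ± 0.34. When cells with a hashtag were clustered alone, 2 of 16 tested members were called and B2m fell to 0.76. In that clustering 17 cells formed a cluster named from natural killer cell markers. The mature T cell-like cluster scored 0.203 for those markers there, against 1.464 in the main clustering. The part of natural killer-like cells in the mature T cell-like values was not tested.

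Among the supply genes, none of the members Psmb8, Psmb9, Psmb10, Tap1, Tap2 and Tapbp was called beside the heavy chains. Psmb8 stood at 245 and 232 CPM in double-positive-like and 268 and 252 in mature T cell-like cells, a difference of 0.20 ± 0.17. Tap1 differed by 0.22 ± 0.34, Tapbp by 0.78 ± 0.34 and Tap2, at 153 and 129 against 75.6 and 68.7 CPM, by -0.90 ± 0.25 (adjusted p = 0.0308, edgeR's quasi-likelihood test), under the fold limit. Of the 7 folding and trimming partners, which are not members, Calr (1.09 ± 0.20) and Psme2 (1.4 ± 0.31) were called higher (6.25% of all genes). The MHC-like gene Mr1, which presents vitamin metabolites to MAIT cells, was lower (-2.64 ± 0.35), and 2 of 9 interferon-gamma genes, Ifngr1 (-1.36 ± 0.18) and Gbp4 (-1.32 ± 0.27), were lower.

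**Figure D4:**
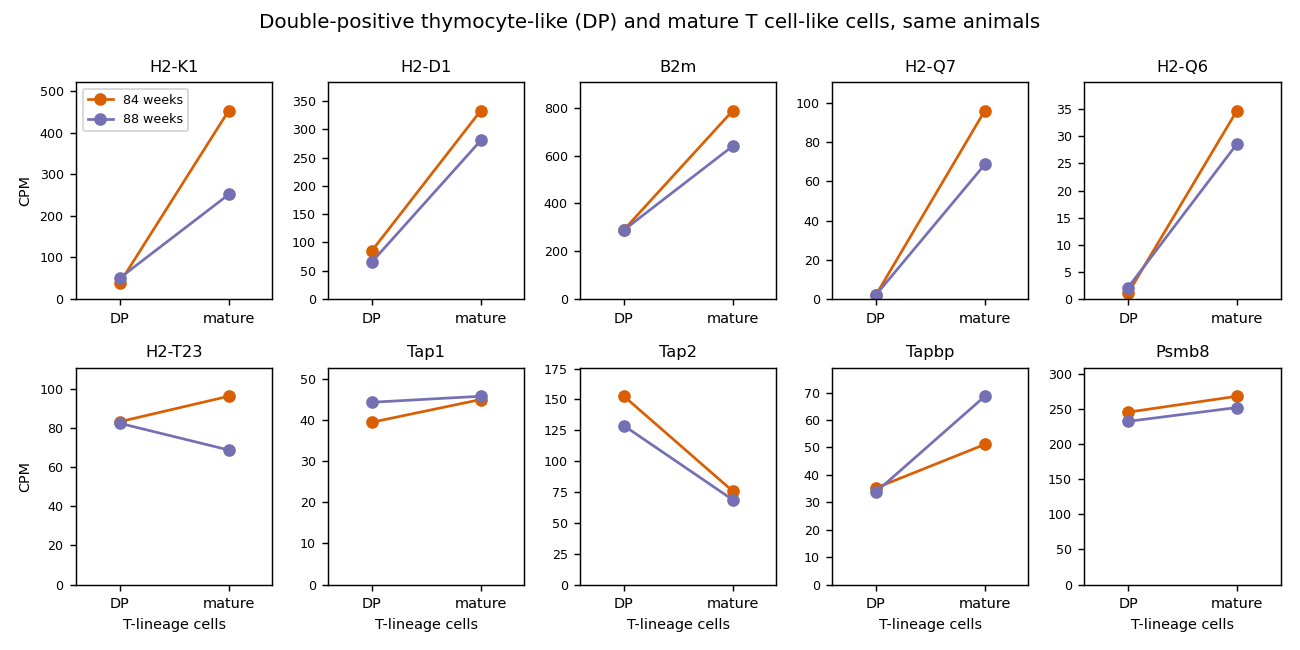
Level in CPM of 10 class I pathway genes in double-positive thymocyte-like (DP) and mature T cell-like cells, each line joining the cells of the same animal (84 or 88 weeks). Lines rise for H2-K1, H2-D1, B2m, H2-Q7 and H2-Q6, end lower for Tap2, which was not called, and stay near level for Psmb8 and Tap1.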

How the data were processed

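Values are raw UMI counts per gene and cell barcode, deposited by the authors as 1 matrix with 142108011 gene UMIs (median 2975 per barcode). They were made with Cell Ranger 6.0.1, per the file headers, and the submitters' processing notes also name Seurat 4.0.5 and mm10. Depth per library was not kept apart, and depth per class is given as median UMIs.

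Cells with at least 500 genes and 1000 UMIs and under 15% mitochondrial UMIs were kept. Hashtags were called with HTODemux (Seurat 5.3.0), and Scrublet in scanpy 1.11.5 marked 360 doublets (3.19%), which were removed. Clusters (Leiden, resolution 0.8) were named from marker genes, so names are rebuilt and not the authors'. The limits on marker scores were set after the data had been seen. Members and lists were chosen with earlier results of these data known.

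Counts were summed per animal and class (at least 10 cells) and tested with edgeR 4.0.16 (R 4.3.3): TMM scaling, filterByExpr and a quasi-likelihood F test with the animal as a block, since both classes come from the same animal per the hashtag table. Whether the animals share a litter is not given. With 3 animals or 2 the spread rests on 2 or 1 residual degrees of freedom plus edgeR's pooled prior. For T cell-like against endothelial-like cells the median prior degrees of freedom were infinite. The SE and p of that comparison thus rest on spread pooled over genes, not on each gene's own spread between animals. SE is the absolute log2 fold change divided by the root of F. CPM are UMIs of a gene scaled to a fixed total per sum, and "pooled" levels use all cells of a class. The code was tested on simulated data.

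Named were the core genes of the rule, any member with a mean of at least 20 CPM in a class or a call, and up to 3 called genes of each context list. Others were named after their values were seen. Alternatives were no filter on low counts, no block, DESeq2 1.42.0, each animal left out, hashtags at 2 times the cutoff, a mitochondrial limit of 10%, no cells with T cell RNA, no doublet removal, members kept in the clustering and clustering of tagged cells alone. A result on one gene of the interferon-gamma list is not reported here.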

Additional observations from a re-analysis of the deposited data

How the results depend on the processing

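Across 84 alternative fits, 1336 values of 131 fold changes (a member in a comparison) were recomputed. Of these, 1305 stayed on the same side of the threshold, 27 lost a call and 4 gained one. Among values called in the main or the alternative fit, 0 changed sign. Changes of sign between 2 uncalled values were not counted. Members that failed the filter on low counts in an alternative had no value there and are not among the 27. The 131 covered core genes of the rule and members called in the main fits, so calls gained by other members are not among the 4. Members called reached 25 in an alternative for endothelial-like against smooth muscle-like cells (main 22). They reached 21 for endothelial-like against fibroblast-like cells (main 16). Fibroblast-like against smooth muscle-like cells, 11 members called, gave 6 (of 7 tested) at hashtags of 2 times the cutoff. Capillary-like against arterial-like cells gave 1 (lower) in place of 0 with no filter on low counts, where 32 members were tested. Mature T cell-like against double-positive-like cells gave 2 in place of 5 when tagged cells were clustered alone. The cause of these shifts was not tested beyond the number of members tested.

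With 1 animal left out, members called ranged from 22 to 24 for endothelial-like against smooth muscle-like cells, from 16 to 19 against fibroblast-like cells, from 10 to 11 for fibroblast-like against smooth muscle-like cells, from 20 to 21 for T cell-like against endothelial-like cells, from 0 to 0 for capillary-like against arterial-like cells and from 5 to 7 against large-vessel-like cells. Without the replicate block the counts, in the order used above, were 22, 16, 10, 21, 0 and 6, then 10 for macrophage-like cells (main 11) and 5 for mature T cell-like cells. For the last 2, leaving out an animal left 1 pair and no residual degrees of freedom.

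Shares of all genes called in each direction were worked out for the main fits alone. Calls over all genes moved by over 1.5 times in 4 comparisons and otherwise stayed within that limit. They fell from 2164 to 831 for fibroblast-like against smooth muscle-like cells at the stricter hashtag cutoff. For macrophage-like cells they went from 982 to 1665 with no filter, 652 under DESeq2, 1631 without doublet removal and 1620 with tagged cells clustered alone. For capillary-like against arterial-like cells they went from 378 to 208 under DESeq2 and 123 without the animal of 84 weeks, and for mature T cell-like cells from 725 to 264 under DESeq2 and 333 at the mitochondrial limit of 10%. Macrophage-like cells could not be refitted at the stricter hashtag cutoff, at that mitochondrial limit or without cells holding T cell RNA, for too few cells. With members kept in the clustering, no cluster was named macrophage-like: the one with the highest macrophage marker score (175 cells) also scored for B cell and T cell markers and was left unnamed.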
